A study of Mus musculus with 6 samples.

Results

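Peritubular myoid cells are the contractile cells that wrap the seminiferous tubules of the testis, and the 10 genes described here encode proteins of their contractile machinery. The members were taken by symbol from a table of 54532 Ensembl genes: Acta2, Myh11, Cnn1, Des, Tagln, Myl9, Actg2, Lmod1, Mylk and Tpm2. All 10 were present. Whole testis RNA was sequenced from male C57BL/6 mice that had received fecal microbiota transplantation (FMT), with 1 library for each mouse. The alcohol-FMT group (mice 18, 24 and 31) received feces of donors that drank 10% ethanol, and the control-FMT group (mice 16, 19 and 21) received feces of control donors that drank no ethanol. Recipients of both groups were 3 weeks old at the start, shared a cage for 2 weeks, and were then gavaged with 200 µl of fecal suspension on 3 days of each week, over 10 weeks, without antibiotic pretreatment. The donors had ethanol for 8 weeks in the series record, and the study's methods give a longer time. The study had 5 mice per group, of which 3 per group were sequenced. How recipients of a group were spread over cages and donors is not given in the sources used here, so p-values measure the spread between these mice. The libraries held 17167372 to 18633124 fragments in genes in alcohol-FMT mice and 16504096 to 18045951 in control-FMT mice.

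Smooth muscle contracts when myosin pulls on actin filaments. Calcium entering the cell binds calmodulin, calmodulin activates myosin light chain kinase, and the kinase phosphorylates the regulatory light chain of myosin, while other kinases restrain the phosphatase that reverses this step. In the testis this contraction moves sperm and tubule fluid toward the rete testis, and endothelin, vasopressin and oxytocin are known to stimulate it. Most of the 10 genes are also expressed in vascular smooth muscle, so in whole testis a transcript cannot be assigned to peritubular myoid cells. In mouse, Actg2 is also known as an actin of postmeiotic germ cells. Fewer cells of a type and less RNA per cell cannot be told apart in whole tissue.

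Levels are given as FPKM, the fragments per kilobase of gene length normalised to library size, which allows different genes to be set side by side. The 10 genes spanned a wide range. Actg2, the gamma actin of enteric smooth muscle, had the highest level, with a mean of 171 FPKM over the 6 libraries, and took 72.1% of the summed FPKM of the 10 genes. It ranked 309 among all genes of the table by mean FPKM. Myl9, a regulatory myosin light chain, followed at 29.6 FPKM, and Acta2, the alpha actin of vascular smooth muscle and the usual stain for peritubular myoid cells, at 22.4 FPKM. Mylk, the myosin light chain kinase, had 4.31 FPKM and Myh11, the smooth muscle myosin heavy chain, had 3.79 FPKM. Tpm2, a tropomyosin, had 2.09 FPKM. Des, the intermediate filament desmin, had 1.44 FPKM, and Cnn1, the actin-binding calponin, had 1.42 FPKM. Lmod1, a leiomodin that nucleates actin filaments, and Tagln, the actin-binding transgelin, were under 1 FPKM, at 0.722 and 0.30 FPKM.

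**Figure D1:**
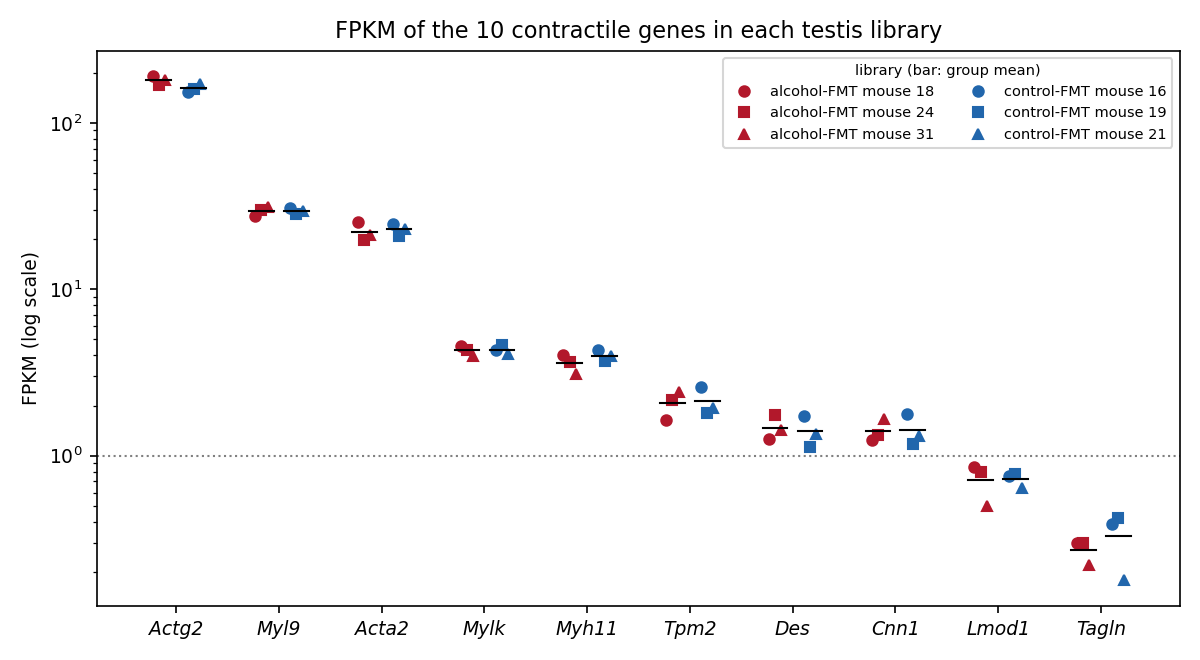
FPKM (log scale) of the 10 contractile genes in 3 alcohol-FMT libraries (red) and 3 control-FMT libraries (blue), with bars at the group means and a dotted line at 1 FPKM. Actg2 lies above all other members in every library, Lmod1 and Tagln lie below 1 FPKM in every library, and the groups overlap for all 10 genes.

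The order of levels was stable for most neighbours. Actg2 stood 5.78-fold above Myl9, and this ratio was 5.0 at the lowest and 6.92 at the highest over the 6 libraries. Myl9 was 1.32-fold above Acta2 in the mean and higher in all 6 libraries. Acta2 was 5.21-fold above Mylk, and the ranges over libraries did not overlap. Mylk and Myh11 did not differ beyond their spread, with a ratio of 1.14 and overlapping ranges, and Mylk was higher in 5 of 6 libraries. Myh11 was 1.81-fold above Tpm2 without overlap. Tpm2 was 1.45-fold above Des and higher in all 6 libraries, but their ranges overlapped. Des and Cnn1 could not be ordered: their ratio was 1.02, and Des was higher in 3 of 6 libraries. Lmod1 came 1.96-fold below Cnn1, and Tagln 2.40-fold below Lmod1, each without overlap.

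Sequence sharing between genes affects some of these values. Actg2 and Acta2 encode nearly identical actins, but none of the 50-base stretches of their transcripts was shared between them. Actg2, Myl9, Cnn1, Lmod1 and Tpm2 shared 0% of such stretches with any other gene, Acta2 0.326% and Myh11 0.340%. Des shared 4.61% and Mylk 4.56%. For Tagln the share was 58.3%, since its exons (GRCm38, chr9:45929619-45936058, minus strand) lie across from 2 genes on the opposite strand. The predicted gene Gm48529 covers 1241 of its exon bases, or 62.4%, and Pcsk7, a proprotein convertase gene, covers 108 bases, or 5.43%. Gm48529 had a mean of 0.570 FPKM and Pcsk7 of 7.0 FPKM. Whether strand was used in counting is not given in the sources used here, so without strand the fragments of Tagln and of these genes cannot be told apart.

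**Figure D2:**
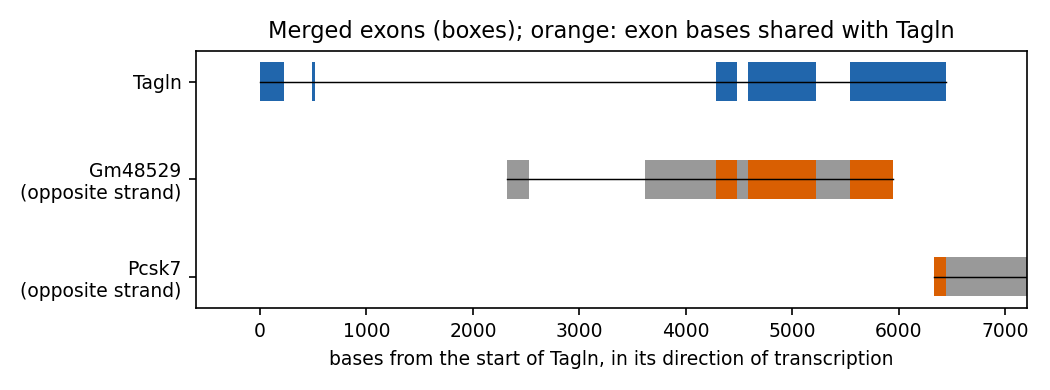
Merged exons (boxes) of Tagln and of the genes that overlap it on the opposite strand, by distance in bases from the start of Tagln in its direction of transcription; Pcsk7 continues beyond the right edge. Orange marks exon bases shared with Tagln, 1241 for Gm48529 and 108 for Pcsk7.

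Serum response factor controls many smooth muscle genes by binding the CArG box. Promoter windows of 300 bases, 250 before and 50 after the gene start in RefSeq (GRCm38.p6), were at hand for 7 of the 10 genes, and that of Mylk lies inside the gene as the table defines it. Myh11, Tagln and Actg2 are named only. A strict CArG box was searched on both strands and lay in the window of 1 of the 7 genes, Myl9, against 1.63% of 32851 windows of all genes. A form with exactly 1 G or C in its centre, which a strict box does not meet, was chosen after the strict search was seen. This form lay in 2 of the 7 windows, those of Acta2 and Myl9, against 8.50% of all windows. The windows of these genes, which held matches and belong to the most abundant members after Actg2, are shown 5′ to 3′ with the matching letters in capitals. The Acta2 window is chr19:34255324-34255623 on the minus strand, and the Myl9 window is chr2:156775214-156775513 on the plus strand.
Acta2: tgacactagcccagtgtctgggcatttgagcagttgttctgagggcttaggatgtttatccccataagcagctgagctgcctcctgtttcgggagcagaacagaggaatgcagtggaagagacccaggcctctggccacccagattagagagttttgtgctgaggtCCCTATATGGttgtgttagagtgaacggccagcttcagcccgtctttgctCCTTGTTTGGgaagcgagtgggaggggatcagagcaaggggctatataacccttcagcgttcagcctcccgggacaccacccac
Myl9: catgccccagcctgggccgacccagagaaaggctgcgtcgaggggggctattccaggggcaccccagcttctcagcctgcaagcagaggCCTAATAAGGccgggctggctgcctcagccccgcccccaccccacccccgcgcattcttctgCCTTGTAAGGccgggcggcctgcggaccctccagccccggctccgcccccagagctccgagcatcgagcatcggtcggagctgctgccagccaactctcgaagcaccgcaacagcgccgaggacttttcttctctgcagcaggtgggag
In Acta2 the matches CCCTATATGG and CCTTGTTTGG began at positions -84 and -34 relative to the gene start. In Myl9 the strict match CCTAATAAGG began at position -161, and CCTTGTAAGG at position -99. A match describes letters only, and binding was not measured.

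The comparison of alcohol-FMT with control-FMT testes asks whether feces of alcohol-drinking donors altered gene expression in the recipient testis. No contractile gene passed a test for a difference between the groups. The groups overlapped for all 10 genes, whereas 13.1% of all 15206 tested genes did not overlap. Genes with a mean of at least 1 FPKM were tested, which kept 8 of the 10 and left out Lmod1 and Tagln. At an adjusted p up to 0.05 (limma on log2(FPKM + 1), Benjamini-Hochberg over 15206 genes), 0 of the 8 passed, against 0% of all tested genes, and limma-voom likewise called 0%. The study's methods state an adjusted p and its results a cutoff on p not said to be adjusted. At an unadjusted p up to 0.05, 0 of the 8 passed, against 7.27% of all tested genes by limma (4.93% higher and 2.34% lower in alcohol-FMT) and 7.31% by limma-voom. The median log2 fold change, alcohol-FMT over control-FMT, was -0.0094 for the 8 genes and 0.0081 for all tested genes. The sign of this small median turned without alcohol-FMT mouse 18 (0.050) and without control-FMT mouse 16 (0.062). The limma 95% confidence intervals of the 8 genes all lay between -0.37 and 0.34 on this scale, or 0.776-fold to 1.27-fold of FPKM + 1. The pseudocount of 1 pulls fold changes of genes near 1 FPKM toward 0. By limma-voom on fragments the intervals of the lowest tested members were wider. They were -0.36 to 0.52 for Des, -0.47 to 0.46 for Cnn1 and -0.46 to 0.41 for Tpm2.

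Among the actins, Actg2 was 191, 169 and 180 FPKM in alcohol-FMT mice 18, 24 and 31, against 154, 160 and 172 FPKM in control-FMT mice 16, 19 and 21. All 3 alcohol-FMT libraries lay above the control-FMT mean, but alcohol-FMT mouse 24 lay below control-FMT mouse 21. The means were 180 ± 10.9 FPKM in alcohol-FMT and 162 ± 9.10 FPKM in control-FMT (SD, n = 3 each). The log2 fold change was 0.15 (95% interval -0.027 to 0.33), with a limma p of 0.0844 and an adjusted p of 0.719. It rested on 4331 to 5144 fragments per library.

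Acta2 had 25.2, 19.7 and 21.1 FPKM in alcohol-FMT mice 18, 24 and 31, against 24.7, 20.9 and 23.1 FPKM in control-FMT mice 16, 19 and 21. Each group had its own high library, mouse 18 and mouse 16, at nearly the same level. The means were 22.0 ± 2.85 FPKM in alcohol-FMT and 22.9 ± 1.89 FPKM in control-FMT (SD, n = 3 each), with a log2 fold change of -0.061 (95% interval -0.31 to 0.19, limma adjusted p = 0.928). The ratio of Actg2 to Acta2 was 7.59, 8.58 and 8.54 in the alcohol-FMT libraries and 6.22, 7.66 and 7.44 in the control-FMT libraries, and so overlapped between the groups.

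Of the myosin genes, Myl9 had 27.6, 30.0 and 31.3 FPKM in alcohol-FMT mice 18, 24 and 31, against 30.8, 28.2 and 29.4 FPKM in control-FMT mice 16, 19 and 21. The control-FMT values lay within the alcohol-FMT range. Its means of 29.6 ± 1.87 FPKM in alcohol-FMT and 29.5 ± 1.253 FPKM in control-FMT (SD, n = 3 each) gave a log2 fold change of 0.0074 (95% interval -0.16 to 0.18, limma adjusted p = 0.987). This was the steadiest of the 10 genes, with a coefficient of variation of 4.83% over the 6 libraries, against a median of 10.96% over all tested genes. Myh11 had 4.03, 3.65 and 3.08 FPKM in alcohol-FMT mice 18, 24 and 31, against 4.32, 3.69 and 3.95 FPKM in control-FMT mice 16, 19 and 21. Alcohol-FMT mouse 31 was the lowest library and control-FMT mouse 16 the highest, while mouse 18 of alcohol-FMT exceeded 2 control-FMT libraries. Its log2 fold change was -0.12 (95% interval -0.37 to 0.12), with a limma p of 0.268 and an adjusted p of 0.841. Mylk, which phosphorylates the light chain, had 4.58, 4.34 and 3.95 FPKM in alcohol-FMT mice 18, 24 and 31, against 4.31, 4.59 and 4.09 FPKM in control-FMT mice 16, 19 and 21, so that the groups overlapped. Its log2 fold change was -0.012 (95% interval -0.21 to 0.18, limma adjusted p = 0.981).

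The filament-associated genes were lower and more variable. Tpm2 had 1.63, 2.16 and 2.41 FPKM in alcohol-FMT mice 18, 24 and 31, against 2.601, 1.80 and 1.95 FPKM in control-FMT mice 16, 19 and 21, with a log2 fold change of -0.023 (95% interval -0.35 to 0.30). Alcohol-FMT mouse 18 was the lowest library and control-FMT mouse 16 the highest. Des had 1.26, 1.74 and 1.42 FPKM in alcohol-FMT mice, against 1.74, 1.13 and 1.35 FPKM in control-FMT mice, with a log2 fold change of 0.045 (95% interval -0.25 to 0.34). Its highest libraries, mouse 24 of alcohol-FMT and mouse 16 of control-FMT, were in different groups. Cnn1 had 1.24, 1.33 and 1.65 FPKM in alcohol-FMT mice, against 1.78, 1.18 and 1.32 FPKM in control-FMT mice, with a log2 fold change of -0.0069 (95% interval -0.30 to 0.28). Here the control-FMT libraries enclosed the alcohol-FMT libraries. The coefficients of variation were 17.7% for Tpm2, 17.4% for Des and 16.97% for Cnn1. These 3 genes rested on 80 to 137, 76 to 122 and 57 to 88 fragments per library, in that order. The part of counting error in their spread was not tested.

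Lmod1 and Tagln were too low for the main fit and were read from a limma fit without this filter, on the 35799 genes that had a fragment. Lmod1 had 0.856, 0.802 and 0.496 FPKM in alcohol-FMT mice 18, 24 and 31, against 0.755, 0.778 and 0.643 FPKM in control-FMT mice 16, 19 and 21. Its log2 fold change was -0.011 (limma adjusted p = 0.9999) on 36 to 59 fragments per library. Tagln had 0.298, 0.297 and 0.219 FPKM in alcohol-FMT mice, from 10, 11 and 8 fragments, against 0.389, 0.421 and 0.178 FPKM in control-FMT mice, from 14, 15 and 6 fragments. Control-FMT mice held both the highest and the lowest Tagln value. Its log2 fold change was -0.060 (limma adjusted p = 0.896), and limma-voom on the fragments gave -0.21. An exact Poisson interval of 95%, which covers counting error only, ran from 2.20 to 13.1 fragments for the lowest library and from 8.40 to 24.7 for the highest, so a change of moderate size in Tagln was not detectable at this depth.

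**Figure D3:**
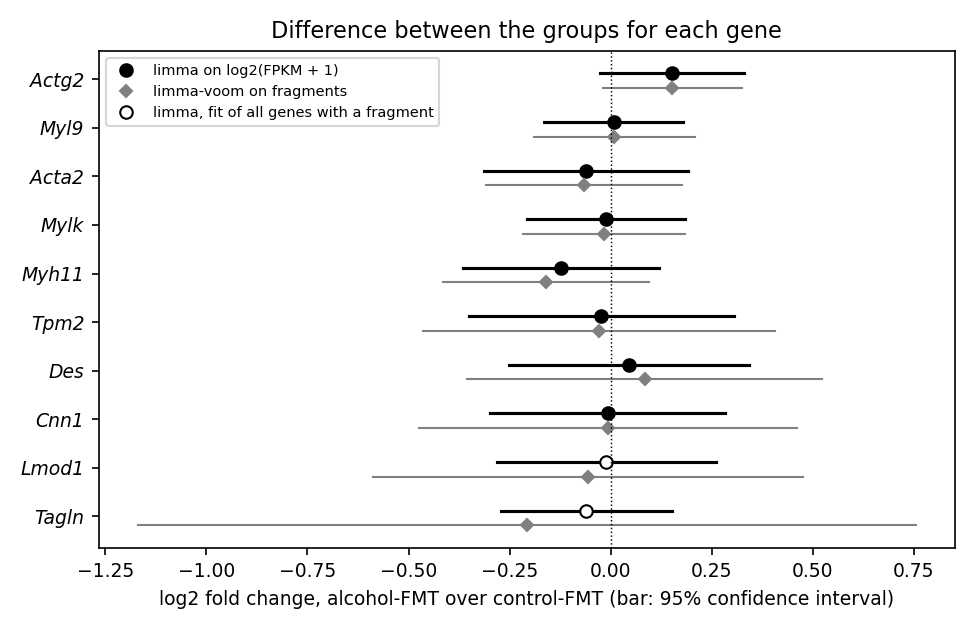
Log2 fold change, alcohol-FMT over control-FMT, of each contractile gene with its 95% confidence interval, from limma on log2(FPKM + 1) (black; open circles for Lmod1 and Tagln, from the limma fit without the filter) and from limma-voom on fragments (grey). Every interval holds 0, the Actg2 value is the highest at 0.15, and the limma-voom interval of Tagln is the widest.

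The measured values of the 10 genes did not follow a single profile over the 6 libraries. Of their 45 pairs, 20 had a Pearson's r above 0 on the log2(FPKM + 1) scale (n = 6 libraries, given as a description), and r ran from -0.79 for Myl9 with Mylk to 0.95 for Myl9 with Tpm2, with a median of -0.042. Myl9, Tpm2, Cnn1 and Des, chosen after their values were seen, had r of 0.65 to 0.95 among themselves. The same 4 genes had r of -0.79 to 0.0097 with Mylk and Lmod1. After a trend with gene length was taken out of each library, a step added after the data were seen, the ranges were 0.63 to 0.97 and -0.65 to 0.048. The libraries are shared by all pairs. Some genes rest on few fragments per library, with 6 to 15 for Tagln, 36 to 59 for Lmod1 and 57 to 88 for Cnn1. The part of counting error in these r was not tested.

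Control-FMT mouse 16 stood apart within its group. In this library 9 of the 10 genes lay above their own mean over the 6 libraries, all but Actg2, and the median deviation was 0.12 on the log2(FPKM + 1) scale, against -0.075 to 0.037 in the other 5 libraries. Actg2 was at its lowest there. The summed FPKM of the 9 genes other than Actg2 was 66.7, 64.1 and 65.6 in alcohol-FMT mice 18, 24 and 31, against 71.3, 62.8 and 65.9 in control-FMT mice 16, 19 and 21. Some marker sums of other cell types were also highest in mouse 16: 521 FPKM for 8 Leydig cell genes, against 331 to 462 FPKM in the other libraries, 14.6 FPKM for 10 endothelial genes, 20.3 FPKM for 8 fibroblast genes and 51.0 FPKM for 8 macrophage genes. Other sums were not. Vascular smooth muscle and pericyte genes summed to 39.5 FPKM in mouse 16, against 41.1 FPKM in alcohol-FMT mouse 31. Sertoli cell genes summed to 482 FPKM, against 507 FPKM in alcohol-FMT mouse 18. Germ cell genes were highest in alcohol-FMT mouse 31, and the adipocyte sum was lowest in mouse 16, at 13.1 FPKM. The part of these cells in the values of the contractile genes was not tested. Without mouse 16, 0 of the contractile genes passed either threshold, the median log2 fold change of those tested was 0.062, and that of Actg2 was 0.12 (limma adjusted p = 0.844).

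**Figure D4:**
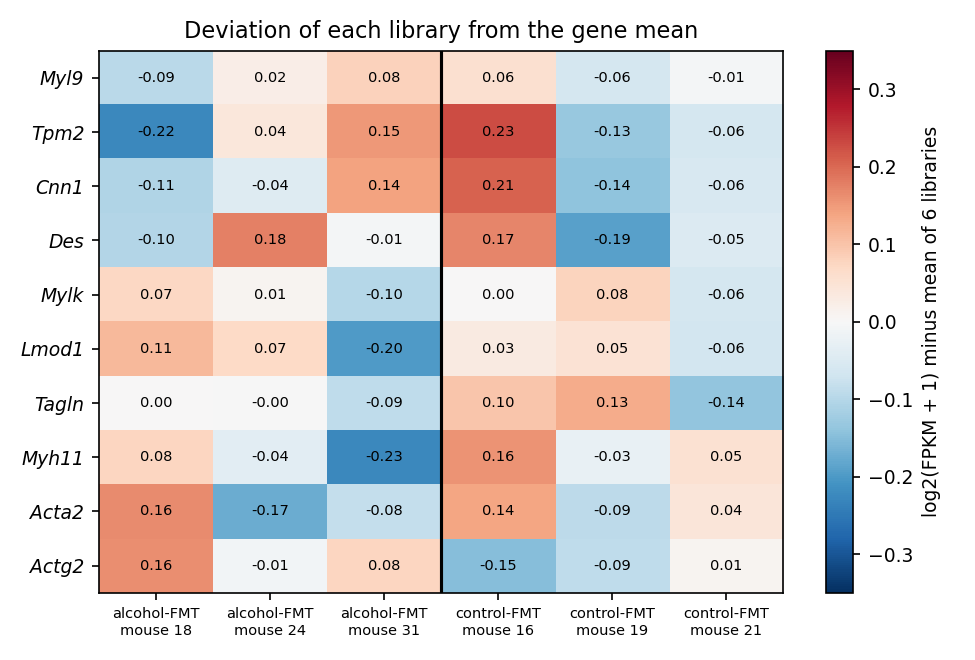
Deviation of each library from the gene's mean over 6 libraries, on the log2(FPKM + 1) scale, for the 10 contractile genes (rows), with alcohol-FMT libraries left of the black line and control-FMT libraries right of it. Myl9, Tpm2, Cnn1 and Des are high in control-FMT mouse 16 and low in alcohol-FMT mouse 18 and control-FMT mouse 19, and Actg2 runs the other way in mice 18 and 16.

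The genes whose values followed the mean standardised profile of the 10 most closely were Rab13, Cnn2, Ctsz, Vwa1, Eef1akmt1, Hbp1, Mybbp1a and Tmem167b, out of 11641 protein-coding genes compared. Their r over the 6 libraries was 0.997 for Rab13, a small GTPase, 0.985 for Cnn2, a calponin outside the 10 genes, and 0.953 to 0.984 for the others, and 31 genes had r above 0.9. With 6 libraries and 11641 genes compared, high r can arise by chance, so these values are a description and were not tested. The mean profile was itself highest in control-FMT mouse 16, at 0.69. Each of the named genes was highest there too, which follows from how they were chosen and is no separate result. Rab13 had 2.71, 2.64 and 2.32 FPKM in alcohol-FMT mice 18, 24 and 31, against 3.41, 2.38 and 2.31 FPKM in control-FMT mice 16, 19 and 21.

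Markers of other cells that hold contractile genes were checked in the same libraries. The 12 genes of vascular smooth muscle and pericytes summed to 25.5, 39.5 and 41.1 FPKM in alcohol-FMT mice 18, 24 and 31, against 39.5, 36.8 and 37.4 FPKM in control-FMT mice 16, 19 and 21, and Ndufa4l2 alone averaged 27.9 FPKM. Of the 3 tested, 1 was lower in alcohol-FMT at an unadjusted p up to 0.05, against 2.34% of all tested genes. This was the pericyte gene Rgs5, with 1.33, 1.19 and 0.838 FPKM in alcohol-FMT mice, against 1.57, 1.85 and 1.75 FPKM in control-FMT mice (log2 fold change -0.37, limma adjusted p = 0.616). Ndufa4l2 and Rgs5 were named after their values were seen. Skeletal muscle genes summed to 1.502 to 2.03 FPKM in alcohol-FMT and 1.10 to 2.04 FPKM in control-FMT, with 0 of 12 at a mean of 1 FPKM. Cardiac genes summed to 7.38 to 9.85 FPKM in alcohol-FMT and 7.65 to 10.1 FPKM in control-FMT. The 10 Sertoli cell genes summed to 435 to 507 FPKM in alcohol-FMT and 444 to 499 FPKM in control-FMT. The 12 germ cell genes summed to 17744 to 25422 FPKM in alcohol-FMT and 17126 to 19892 FPKM in control-FMT, with the highest sum in alcohol-FMT mouse 31. That library also held 15.1 FPKM of 10 epididymis genes, against 1.17 to 2.07 FPKM in the other 5. Without it, the log2 fold change of Actg2 was 0.15, and 0 of the contractile genes passed either threshold. The sum of the 7 adipocyte genes, mostly Adipoq with a mean of 12.6 FPKM, did not overlap between the groups, with 16.4 to 20.9 FPKM in alcohol-FMT and 13.1 to 16.0 FPKM in control-FMT. Taken singly, 13.1% of all tested genes did not overlap. Of the 3 adipocyte genes tested, 1 was higher in alcohol-FMT at the unadjusted cutoff, against 4.93% of all tested genes. This gene, Cfd of the complement system, was named after its values were seen. Cfd had 2.12, 2.39 and 1.59 FPKM in alcohol-FMT mice and was listed at 0, 0 and 0.512 FPKM in control-FMT mice. It gave 1.59 of the 16.4 FPKM of the adipocyte sum in alcohol-FMT mouse 31, and 0.512 of 16.0 FPKM in control-FMT mouse 21. With Cfd left out of the adipocyte sum, mouse 31 falls below mouse 21 and the groups overlap. In the other marker lists 0 of the tested genes passed that cutoff. The part of any of these cells in the contractile genes was not tested.

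Other genes of smooth muscle contraction were read from 4 lists. Of 30 further filament and cytoskeleton genes, 22 were tested, and 0 rose or fell at an adjusted or unadjusted p up to 0.05. Their median log2 fold change was -0.015, against 0.0081 for all tested genes. Leaving out mouse 31 of alcohol-FMT gave 0.020, leaving out mouse 18 of that group gave -0.043, and leaving out mouse 16 of control-FMT gave 0.024. In 4 of the 22, every alcohol-FMT library lay below every control-FMT library, against 5.33% of all tested genes, and in 0 every alcohol-FMT library lay above, against 7.76%. Among them were Vcl, the adhesion protein vinculin, Svil, the actin-binding supervillin, and Cald1, the thin filament protein caldesmon. Vcl had 4.02, 3.72 and 3.54 FPKM in alcohol-FMT mice 18, 24 and 31, against 4.60, 4.03 and 4.13 FPKM in control-FMT mice 16, 19 and 21 (log2 fold change -0.14, limma adjusted p = 0.763). The log2 fold changes were -0.15 for Svil and -0.14 for Cald1, with adjusted p from limma of 0.794 and 0.798.

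Of 30 genes that control contraction and relaxation, 23 were tested. At the unadjusted cutoff 1 was higher and 2 were lower in alcohol-FMT, against 4.93% higher and 2.34% lower of all tested genes, and 0 passed the adjusted threshold. Calm3, a calmodulin gene, had 195, 208 and 208 FPKM in alcohol-FMT mice 18, 24 and 31, against 186, 169 and 179 FPKM in control-FMT mice 16, 19 and 21 (log2 fold change 0.19, limma adjusted p = 0.672). Rock1, a kinase that promotes contraction, had 7.75, 6.23 and 6.28 FPKM in alcohol-FMT mice, against 7.60, 9.07 and 8.56 FPKM in control-FMT mice (log2 fold change -0.28, limma adjusted p = 0.676), and its groups overlapped. Arhgef12, a guanine nucleotide exchange factor, had 3.57, 3.20 and 3.03 FPKM in alcohol-FMT mice, against 3.77, 4.32 and 3.73 FPKM in control-FMT mice (log2 fold change -0.21, limma adjusted p = 0.687). Cav1, the caveolar protein caveolin, had a log2 fold change of -0.22 (limma adjusted p = 0.774). The median of the list was -0.060. Every alcohol-FMT library lay below every control-FMT library in 4 of the 23 genes, against 5.33% of all tested genes, and above in 2, against 7.76%. Without mouse 24 or 31 of alcohol-FMT, or without mouse 19 or 21 of control-FMT, 0 were higher and 0 were lower. Without alcohol-FMT mouse 18, 2 were higher, and without control-FMT mouse 16, 1 was lower.

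Most genes for ligands and receptors that act on peritubular myoid cells were under 1 FPKM, as were most of all 54532 genes. Of 31 ligands and receptors, 12 were tested, with 0 past either threshold and a median of -0.066. The other 19 had a mean under 1 FPKM, among them Edn1, Ednra and Ednrb, an endothelin and its receptors. Of all 54532 genes, 15206 had a mean of at least 1 FPKM. Dhh, the hedgehog ligand of Sertoli cells, had 1.90, 1.87 and 1.77 FPKM in alcohol-FMT mice 18, 24 and 31, against 2.35, 1.99 and 2.08 FPKM in control-FMT mice 16, 19 and 21, with no overlap (log2 fold change -0.14, limma adjusted p = 0.774). Ece1, which cleaves endothelin precursors, had a log2 fold change of -0.14, and the chemokine gene Cxcl12 had -0.11, both with overlapping groups. Without alcohol-FMT mouse 18, 1 gene of this list was higher at the unadjusted cutoff, and without control-FMT mouse 19 the median was -0.0090.

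Of 20 transcription factors of smooth muscle genes, 12 were tested, with 0 past either threshold, 0 without overlap and a median of -0.064. Fhl2, a LIM-domain cofactor of serum response factor, had 2.38, 2.09 and 1.92 FPKM in alcohol-FMT mice 18, 24 and 31, against 3.46, 2.09 and 3.23 FPKM in control-FMT mice 16, 19 and 21 (log2 fold change -0.31, limma adjusted p = 0.709). Control-FMT mouse 19 lay within the alcohol-FMT range, and without this library 1 gene of the list was lower at the unadjusted cutoff. The log2 fold changes were -0.10 for Foxo4, -0.11 for Mef2d and 0.079 for Gata6. Srf, serum response factor itself, was tested and had -0.06, and Myocd, its smooth muscle coactivator myocardin, was under 1 FPKM.

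**Figure D5:**
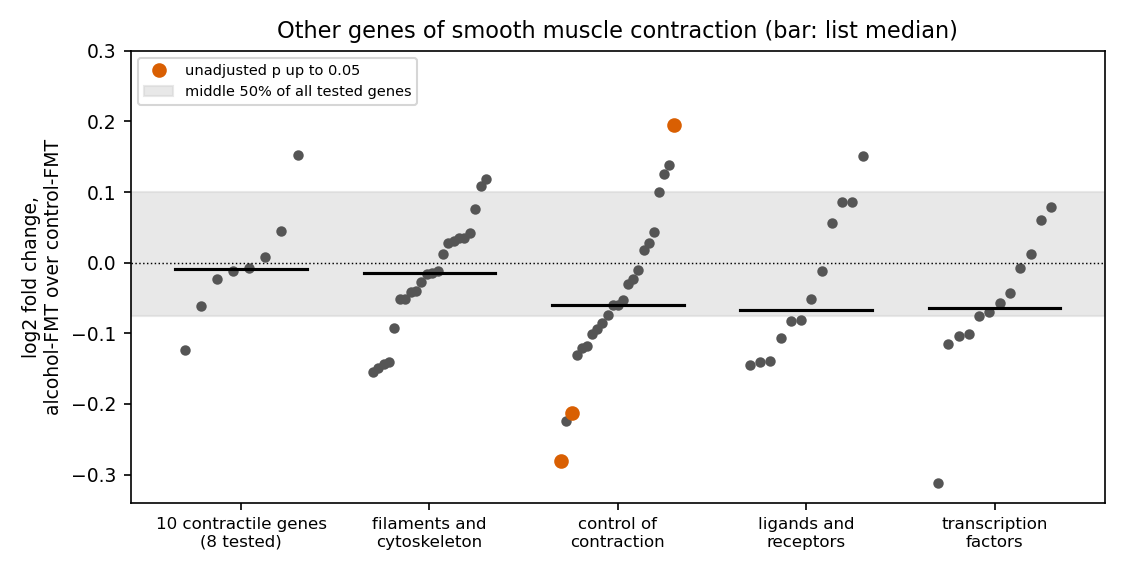
Log2 fold change, alcohol-FMT over control-FMT, of each tested gene of the 10 contractile genes and of the 4 lists, with a bar at the list median and grey shading over the middle 50% of all 15206 tested genes (-0.075 to 0.10). Orange points are Calm3 (0.19), Rock1 (-0.28) and Arhgef12 (-0.21), which passed an unadjusted p of 0.05 and not the adjusted threshold.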

How the data were processed

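Total RNA of 6 testes was sequenced by the authors from Illumina TruSeq libraries, with 1 library per mouse. The paper's methods name TopHat2 as the aligner and DESeq2 as the authors' test, while HISAT2 2.0.5 and 2 builds, mm10 and mm8, are listed in the submitters' processing notes. Gene positions in the table are those of GRCm38. The authors deposited FPKM values, scaled by gene length, which the table also holds, and by a normalised fragment total. FPKM times gene length was a whole multiple of 1 step in each library for 100% of values (tolerance 0.01), so fragments could be recovered.

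Genes with a mean of at least 1 FPKM (15206 of 54532) were tested for 3 alcohol-FMT against 3 control-FMT libraries with limma 3.58.1 (R 4.3.3) on log2(FPKM + 1), allowing for a mean-variance trend, with Benjamini-Hochberg adjustment. The threshold was 0.05. A count test had been planned for counts and was not used, since the table holds FPKM. The test was checked on simulated data. The members and lists were chosen with earlier results of these data known. Named genes were the members, 4 genes per list with the smallest p, and the 8 genes with the most similar profile; Ndufa4l2, Rgs5, Adipoq, Cfd, Srf, Myocd, Edn1, Ednra and Ednrb were named outside this rule, and 2 genes that it names are not reported here. Alternatives were limma-voom on fragments, library totals, quantile normalization, a pseudocount of 0.1, no filter, at least 10 fragments in 3 libraries, removal of the gene length trend, and leaving out each library. Exon overlaps were taken from the GENCODE annotation of GRCm38, whose gene models equal those of the table for 9 of the 10 genes and differ for Acta2. Python 3.11.15, NumPy 2.4.6, pandas 2.3.3, SciPy 1.17.1 and matplotlib 3.10.9 were used.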

Additional observations from a re-analysis of the deposited data

How the results depend on the processing

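No contractile gene passed the adjusted threshold under any of the 128 alternatives run for them, of which the smallest adjusted p was 0.368 (limma, Myh11 without alcohol-FMT mouse 18). Actg2 stayed above 0 (0.049 to 0.20), and Myh11 (-0.19 to -0.04) and Tagln (-0.21 to -0.0093) stayed below 0. The sign turned for Cnn1 (0.013) and Lmod1 (0.012) with quantile normalization, for Myl9 with library totals (-0.021), quantile normalization (-0.030) and the length trend removed (-0.056), and for Mylk with the length trend removed (0.037). Leaving out each library gave log2 fold changes of -0.16 to 0.011 for Acta2, -0.079 to 0.095 for Cnn1, -0.039 to 0.14 for Des, -0.070 to 0.085 for Lmod1, -0.031 to 0.056 for Myl9, -0.052 to 0.035 for Mylk and -0.10 to 0.085 for Tpm2. Over all genes, leaving out a library gave 0 to 2 adjusted calls (2 without alcohol-FMT mouse 31, by limma) and 664 to 2697 unadjusted calls, and no filter gave 2016 unadjusted calls. Of the filament list, 1 gene was lower by limma-voom. Of the control list, 0 were higher with library totals or quantile normalization, 1 was lower with quantile normalization or the length trend removed, leaving out a library gave 0 to 2 in each direction, and its median was -0.083 with library totals, -0.030 with the length trend removed and -0.066 to -0.019 without a library. Of the ligands and receptors, 2 were lower with the fragment filter, and leaving out a library gave 0 to 1 higher and a median of -0.11 to -0.0090. Of the transcription factors, 1 was higher and 1 lower with no filter and with the fragment filter, 1 was lower with the length trend removed, and leaving out a library gave 0 to 1 lower. The cause of these shifts was not tested. Depth limits Tagln and Lmod1. No paired analysis was run, because no pairing of mice across the groups is given in the sources used here.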
